A study of Rattus norvegicus with 20 samples.

Results

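The mesenteric artery of ovariectomised female Sprague Dawley rats given only the vehicle was profiled on 4 single-colour CodeLink rat whole genome arrays, 1 rat per array, out of 20 arrays in the series. Members were the 4 arrays whose titles name the control. These rats lost their ovaries at 4 weeks of age, before regular cycles began, recovered for 2 weeks and received 20% 2-hydroxypropyl-β-cyclodextrin by daily gavage over the next 3 weeks, which made them 9 weeks old at tissue collection. The other 16 arrays came from rats of the same strain, sex, age, surgery and schedule. In the same 20% vehicle they received ethinyl estradiol (3 arrays), estradiol benzoate (3) or equilin (3) at 0.15 mg/kg, or tamoxifen (4) or raloxifene (3) at 3 mg/kg. All 20 rats were ovariectomised, so the vehicle artery shows a state without ovarian hormones from before puberty, and intact rats were not analysed here. The arterial tree was dissected away from veins and fat before RNA was taken, per the labels' protocols.

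Small mesenteric arteries set much of the resistance to blood flow into the gut. Their wall has a single layer of endothelium that makes nitric oxide and prostacyclin, a media of contractile smooth muscle wrapped in elastin and collagen, and an adventitia of fibroblasts, sympathetic nerve endings and immune cells. Fat surrounds the vessel, and the pancreas, lymph nodes and gut lie within the same mesentery. Estrogen acts on the wall through the nuclear receptors encoded by Esr1 and Esr2 and through the membrane receptor encoded by Gper1.

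Values are deposited linear intensities after background subtraction and scaling, in arbitrary units, and the median of a vehicle array was 1.0007 to 1.0457. Of 35129 probes, 16835 had 1 gene symbol and a value in all 4 vehicle arrays, for 12183 genes. The brightest probe of each gene had a median of 3.59, and 24.6 and 95.4 marked the top 10% and the top 1% of genes. A probe's intensity depends on its own binding as well as on the amount of transcript, so ranks across genes are a description. The 4 arrays correlated at 0.961 to 0.980 on the centred log2 scale, and their number limits the precision of every value.

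The vehicle arrays were not alike in 3 measured respects. Array 1 had a higher deposited median and lay with all 9 estrogen arrays (set A, medians of 1.0408 or more), whereas arrays 2, 3 and 4 lay with all 7 tamoxifen and raloxifene arrays (set B, medians of 1.015 or less). The labels do not name these sets. Over the 8418 brighter symbol probes, the difference of array 1 from the other vehicle arrays and the difference between treated arrays of set A and set B had a Pearson r of 0.37 and a Spearman rho of 0.44, a description across probes that also carries the difference between drug classes. The 99th percentile of intensity was 95.8 in array 1 and 79.3, 78.7 and 72.3 in arrays 2, 3 and 4. Array 4 also held a class of 92 symbol probes that read more than 1 log2 unit below all other vehicle arrays, described with the variable genes.

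Of the 6 genes taken as markers of the artery, 4 were bright, Lmod1 was moderate, and Acta2 was dim. Myh11, the smooth muscle myosin heavy chain, read 429, 357, 322 and 222 on its brighter probe in rats 1 to 4, with the third highest mean of all genes. Its other probe read 71.7, 71.8, 161 and 201, so the 2 probes ran in opposite order across the rats. Nos3, the endothelial nitric oxide synthase, read 46.3, 36.1, 39.9 and 33.2. Col1a1, a chain of type I collagen, read 111, 97.5, 67.6 and 66.9 on 1 probe and 21.5, 23.8, 23.6 and 25.5 on the other. The brighter probe separated rats 1 and 2 from rats 3 and 4, and the dimmer one did not.

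Adipoq, which encodes the fat cell hormone adiponectin, read 105, 111, 96 and 72.2. Lmod1, an actin nucleator of smooth muscle, read 7.67, 7.99, 6.02 and 8.30, at percentile 66.5 of all genes. Acta2, the smooth muscle alpha actin and usually among the most abundant transcripts of this tissue, has a single probe, which read 0.537, 1.11, 0.333 and 0.738. That is percentile 24.7, below the median gene in all 4 rats and also in the treated arrays, where it ran from 0.512 to 1.49. The label of an artery therefore rests here on Myh11, the other contractile genes and endothelial genes such as Nos3. Acta2 goes against it on its only probe, and how well that probe reports the transcript was not tested.

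The brightest transcripts belonged to the contractile apparatus, the elastic matrix, fat and protein synthesis. Sparc, a collagen-binding matricellular protein, had the highest mean at 339 ± 89.6 (SD, n = 4), with 449.6, 357, 316 and 234 in rats 1 to 4. Cfd, the adipocyte serine protease adipsin, read 402, 386, 316 and 249. Car3, a carbonic anhydrase abundant in fat and muscle, read 487, 355, 261 and 226, more than 2-fold higher in rat 1 than in rat 4. Eln, the precursor of elastin, read 424, 349.6, 284 and 241. All of these were highest in rat 1 and lowest in rat 4.

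Actin-binding and filament genes filled much of the rest of the top 25. Flna, a cross-linker of actin, read 368, 302, 322 and 232, and Tpm2, a tropomyosin, read 358, 301, 266 and 234. Tagln, the smooth muscle marker transgelin, read 293, 285, 279.6 and 229. Myl9, the regulatory light chain whose phosphorylation triggers contraction, read 269, 246, 258 and 232, and Tpm1 read 261, 234, 261 and 255, with no rat standing apart. Vim, the intermediate filament of mesenchymal cells, read 322, 293, 269 and 249, and Gsn, an actin-severing protein abundant in fibroblasts, read 362, 299.8, 258 and 213. Igfbp7, a binding protein secreted by vascular cells, was the steadiest of the 25 at 259.9, 262, 262 and 247.

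The remaining top 25 comprised 6 cytosolic ribosomal protein genes (Rps29, Rpl9, Rpl10, Rps3a, Rpl6 and Rps27), the actin monomer binder Tmsb4x, the matricellular Sparcl1, the cyclophilin Ppia, the growth-related Tpt1, the lysosomal protease Ctsb, and Itfg2. Their means ran from 242.5 to 325. Array 1 was highest for 24 of the 25 genes and array 4 lowest for 23, with both true of 22 (88.0%), against 7.32% of the 8418 brighter symbol probes. The 99th percentiles of the arrays have the same highest and lowest rat, and their part in this order was not tested.

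**Figure D1:**
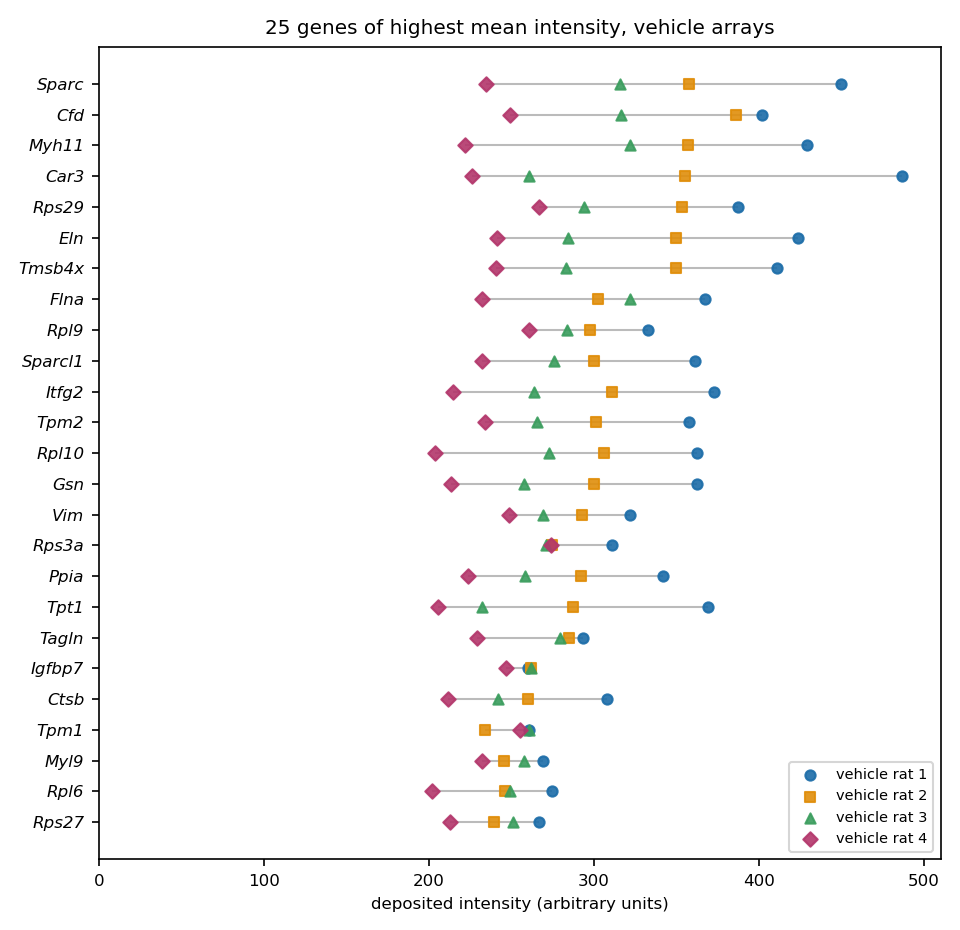
Deposited intensity (arbitrary units, linear axis from 0) of the 25 genes with the highest mean over the 4 vehicle arrays, 1 symbol per rat and a line from lowest to highest. Rat 1 is highest for 24 genes and rat 4 lowest for 23, and Igfbp7, Tpm1 and Myl9 span the least.

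The 100 brightest symbol probes, for 96 genes, held 11.8% to 15.5% of the summed intensity of symbol probes in a rat. They included 18 cytosolic ribosomal protein genes, 8 smooth muscle genes, 7 matrix genes, 6 adipocyte genes, 3 fibroblast genes, 2 chaperones and 2 subunits of oxidative phosphorylation. Ranked in the same way, 82 to 91 of these 100 probes were also in the top 100 of each treated group.

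Across 33 gene lists, of whose 661 genes 579 were measured, 10 had a median intensity percentile above 90, where the median over all genes is 50. In RNA from a whole vessel, fewer cells of a type and less RNA per cell cannot be told apart. The smooth muscle list had a median percentile of 96.6, with 17 of 24 measured genes in the top 10% and 8 in the top 1%. Beside those named, Aoc3, an amine oxidase on the surface of smooth muscle and fat cells, read 201, 185, 190.0 and 193. Cnn1, the contractile regulator calponin, read 109, 114, 115 and 173, and Synpo2, an actin-bundling protein, read 37.9, 32.8, 62 and 84.3. Cnn1 was highest in rat 4 alone, and Synpo2 in rats 3 and 4.

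Low members of the smooth muscle list were Acta2, Myocd, the coactivator that switches on contractile genes, at 0.767 ± 0.278 (SD, n = 4), and Mylk, the myosin light chain kinase, at 2.24 ± 1.34. Mylk read 3.48, 3.25, 1.5 and 0.735, highest in rats 1 and 2. The mean level of the 24 genes nevertheless spanned only 0.05 log2 units over the 4 rats, the smallest range of any list. Single genes were not steadier than others: their median log2 SD was 0.31, against 0.27 over all genes. In the mean, genes such as Mylk that were lower in rats 3 and 4 offset others such as Synpo2 that were higher.

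Receptors and channels that set vascular tone were moderately bright, with a median percentile of 72.2 and 3 of 27 genes in the top 10%. Abcc9, the regulatory subunit of the vascular ATP-sensitive potassium channel, read 52.5, 48.1, 37.2 and 49.6, and its pore partner Kcnj8 read 12.9, 12.5, 12.8 and 12.5. Kcnj8 was nearly the same in every rat. P2rx1, the ATP-gated channel that answers sympathetic co-transmission, read 30.6, 24.6, 44.3 and 56.2, and Npy1r, the receptor for neuropeptide Y, read 18.2, 15.7, 34.4 and 56.8. Both were higher in rats 3 and 4 than in rats 1 and 2.

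The angiotensin receptor gene Agtr1a read 10.7, 13.4, 19 and 21.2, against 0.160, 0.273, 0.356 and 0.745 for Agtr1b. Among the alpha-1 adrenergic receptors, Adra1d was the brightest at 6.30 ± 1.95, with Adra1b at 1.69 ± 0.401 and Adra1a at 0.148 ± 0.0065 (SD, n = 4). Kcnma1, the pore of the large calcium-activated potassium channel, read 9.51, 8.67, 14.6 and 25.1, and its beta subunit Kcnmb1 read 14.2, 12.3, 16.2 and 22.1. Cacna1c, the pore of the L-type calcium channel, was dim but steady at 1.76, 1.85, 1.84 and 1.83. Gucy1a1, a subunit of the nitric oxide receptor guanylate cyclase, read 9.85, 11, 19.1 and 23.8.

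The endothelial list had a median percentile of 92.9, with 12 of 21 genes in the top 10% and none in the top 1%. With all probes of a gene the median percentile was 79.8. Vwf, which tethers platelets to injured wall, read 75.5, 57.1, 74.3 and 57.3, and Pecam1, a junctional adhesion molecule, read 72.2, 52.5, 51.2 and 60.4. Gja5, the connexin of arterial endothelium, read 61.2, 41.8, 43.7 and 44.9, and Cldn5, a tight junction protein, read 45.6, 40.5, 51.7 and 39.6. The angiopoietin receptor Tek read 44.9, 36.5, 36.6 and 40.4. All of these differed by less than 2-fold among the rats, and the list level spanned 0.06 log2 units.

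Enzymes that make vasoactive mediators ranged widely. Ddah2, which breaks down an inhibitor of nitric oxide synthase, read 41.3, 42.3, 67.4 and 71.2, and Ptgis, the prostacyclin synthase, read 28.5, 23.3, 34.3 and 44.4. Both were higher in rats 3 and 4 on the probes given. The dimmer Ddah2 probe, one of the class low in array 4, read 2.56, 2.62, 4.46 and 0.809, lowest in rat 4. Ece1, which matures endothelin, read 59.8, 52.2, 48.2 and 52.5, and Ptgs2, the inducible cyclooxygenase, read 12.5, 7.12, 4.54 and 6.67, highest in rat 1. Lymphatic genes were also present: the chemokine Ccl21 averaged 102 ± 23.7 and the hyaluronan receptor Lyve1 67.5 ± 18.6 (SD, n = 4), while Prox1, the regulator of lymphatic identity, averaged 2.48 ± 1.11.

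Matrix genes had a median percentile of 97.0, with 27 of 37 in the top 10% and 7 in the top 1%. Mgp, an inhibitor of vessel calcification, read 319, 181, 246 and 208, and Dcn, the collagen-binding proteoglycan decorin, read 217, 209.9, 251 and 219. Postn, the matricellular protein periostin, read 152, 122, 109.9 and 99.7. Basement membrane genes reached 94.9 as a median percentile, led by Lama4 at 79 ± 16.2 and Col4a1 at 71.8 ± 15.5 (SD, n = 4). Col4a1 read 56.4, 67.5, 69.7 and 93.4, highest in rat 4.

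In the fibroblast list, with a median percentile of 94.8 over 12 genes that was 68.1 with all probes of a gene, Igf1, a growth factor, read 150.3, 186, 190.4 and 178, and Serpinf1, a secreted serpin, read 184, 148, 173 and 154. Cxcl12, a chemokine of stromal cells, read 115, 103, 119 and 103. None of these 3 differed by as much as 2-fold between rats. Dpt, a fibroblast matrix protein, did, as described below.

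Fat cell genes were bright, in vessels dissected away from fat per the labels, with a median percentile of 99 and 10 of 15 genes in the top 10%. This was the highest list median on the brightest probe of each gene. With all probes of a gene it was 89.99, below 6 other lists, among them smooth muscle (94.9), matrix (94.7) and basement membrane (91.0). Fabp4, the fatty acid carrier of fat cells, read 132, 146, 102 and 131, and Cidec, which enlarges lipid droplets, read 224, 187, 134 and 142. Cidec was lower in rats 3 and 4 than in rats 1 and 2. Pnpla2 and Lipe, lipases that release stored fat, read 146, 127, 110.0 and 97.1 and 125, 114, 86.9 and 102. Leptin (Lep) was dim at 0.274, 0.372, 0.493 and 0.296. Ucp1, which defines brown fat, read 0.473, 0.587, 0.671 and 0.591, percentile 22.8, and the brown fat list had no gene in the top 10%. How much fat remained on each vessel was not measured.

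Macrophage and dendritic cell genes had a median percentile of 85.9, with Cd74, a chaperone of antigen-presenting molecules, at 130.3, 106, 172 and 123 and the complement gene C1qb at 105, 87.5, 119 and 65.6. Both were highest in rat 3. The list level was 3.44 to 4.03 in vehicle rats and 3.21 to 3.54 in treated rats. Of its 20 tested genes, 0 passed limma's comparison with treated rats, where 36 of all 10220 tested genes were called higher and 7 lower. An unadjusted p under 0.05 was found for 7 of the 20, against 14.2% of all tested genes. The list was chosen with earlier results of these data known, so this share is a description. Mast cell genes were lower, at a median percentile of 41.8, led by Cma1, a chymase, at 16.4, 15, 9.40 and 14.7. Of nerve genes, Pmp22, a myelin protein also made outside nerve, averaged 144 ± 13 and S100b, a Schwann cell marker, 20.01 ± 2.09, while the sympathetic enzymes Th and Dbh averaged 3.64 ± 0.370 and 1.30 ± 0.0605 (SD, n = 4).

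Lists of neighbouring organs lay low. Median percentiles were 16.6 for intestinal epithelium, 17.5 for liver, 34.8 for mesothelium and 42.1 for pancreatic islets. The epithelial genes Epcam and Lgals4 averaged 0.326 ± 0.0951 and 0.194 ± 0.128, and Alb, the liver's albumin gene, 1.79 ± 0.572 (SD, n = 4). The liver list held 1 bright gene, the iron carrier Tf, at 83.7, 71.2, 93.5 and 71.8. Cardiac genes were lowest of all, with a median percentile of 16.2.

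The estrogen receptors read low in this estrogen-depleted artery. Esr1 read 0.886, 0.741, 0.508 and 0.539, Esr2 read 1.34, 1.30, 1.67 and 1.82 and Gper1 read 0.597, 0.514, 1.02 and 0.788, all below the median gene. The estrogen-induced progesterone receptor gene Pgr read 0.644, 0.759, 0.596 and 0.700, and Cyp19a1, the aromatase that makes estrogen, read 0.0633, 0.0743, 0.0632 and 0.123. These probes lie near the low end of the scale, where a low reading does not show that the transcript is absent. The glucocorticoid receptor gene Nr3c1 was brighter at 17.5, 15.8, 9.35 and 11.5, as was Hsd11b1, which regenerates active glucocorticoid, at 25.7, 22.1, 21.6 and 25.8.

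**Figure D2:**
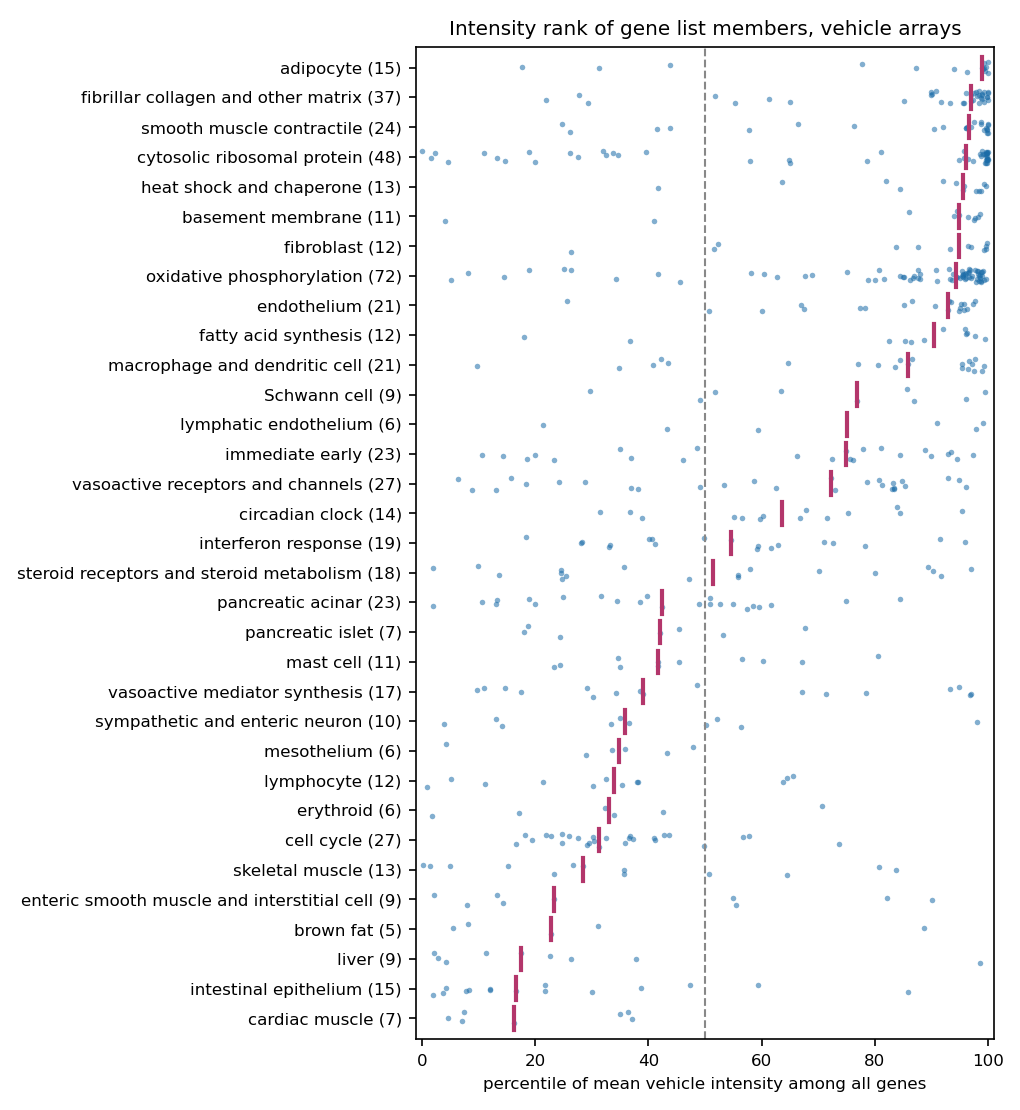
Percentile of the mean vehicle intensity among all 12183 genes for each member of 33 gene lists (points, brightest probe per gene, scattered vertically for legibility) with the list median (bar) and the number of measured genes in parentheses. The dashed line marks 50, the median over all genes. Fat, matrix, smooth muscle and ribosomal lists lie at the right end, and cardiac, intestinal and liver lists at the left.

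Most genes varied little between the 4 rats. Among the 8418 symbol probes above the median intensity, the SD on the centred log2 scale had a median of 0.24, with 0.10 and 0.52 as the 10th and 90th percentiles, and 61 probes (0.725%) exceeded 1. Within the treated groups the median pooled SD of the same probes was 0.32. Of the 100 most variable probes, 66 were also in the top 10% for spread within the treated groups, which rest on other rats. Across all 8418 probes the 2 spreads had a Pearson r of 0.18 and a Spearman rho of 0.03, a description across probes of the same arrays' platform.

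Digestive enzymes of the exocrine pancreas had more members among the 100 most variable probes than 7 other lists counted, with 12 genes. Pnlip, the pancreatic lipase, read 30.9, 3.13, 0.217 and 8.55 in rats 1 to 4, an SD of 2.77 log2 units. Treated rats ran from 0.0698 to 129.7 for it. Its cofactor colipase, Clps, read 17.9, 1.93, 0.094 and 4.39. Prss1, a trypsinogen, read 14.4, 1.70, 0.106 and 6.06, and the elastase gene Cela1 read 11.2, 1.14, 0.355 and 2.38. In all 4 genes the order was the same, with rat 1 highest, then rats 4, 2 and 3.

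The same order held for Cela2a, an elastase, at 16.1, 1.68, 0.212 and 3.27, and for Pla2g1b, the secreted phospholipase, at 12.9, 1.85, 0.225 and 5.33. Cpa1, a carboxypeptidase and the brightest gene of the list, read 40.04, 7.33, 8.69 and 12.5, with rat 1 again highest but rat 2 lowest. The mean of the 23 measured list genes stood at 1.93 in rat 1, −0.24 in rat 2, −1.64 in rat 3 and 0.53 in rat 4 on the centred log2 scale. In treated rats it ran from −1.69 to 4.45, with the highest value in ethinyl estradiol array 3. Of the 21 tested genes, 0 passed limma's comparison with treated rats, where 36 of all 10220 tested genes were called higher and 7 lower. In that comparison 0 of the 21 had an unadjusted p under 0.05, against 14.2% of all tested genes.

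Promoters of 20 measured list genes were held in the RefSeq table for GRCr8. The letters TATAAA began 40 to 20 bases before the gene start, on the gene's strand, in 9 of the 20, against 1.52% of all 27457 promoters. Over the whole 250 bases before the start, on either strand, 10 of 20 held them, against 13.1% of all. The 100 bases before the start of 4 genes that share the rat order are shown, picked among the 9 that hold the letters there, to let these start regions be compared. Cel and Cela3b had the same rat order and did not hold them in this window. Capitals mark TATAAA, and each run reads 5′ to 3′ on the gene's strand.
Pnlip (chr1:267784510-267784609, plus strand): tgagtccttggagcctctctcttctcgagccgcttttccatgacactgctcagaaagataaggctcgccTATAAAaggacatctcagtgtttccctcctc
Prss1 (chr4:71331149-71331248, plus strand): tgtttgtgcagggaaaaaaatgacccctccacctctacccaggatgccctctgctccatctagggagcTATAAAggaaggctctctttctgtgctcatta
Cela1 (chr7:133665062-133665161, minus strand): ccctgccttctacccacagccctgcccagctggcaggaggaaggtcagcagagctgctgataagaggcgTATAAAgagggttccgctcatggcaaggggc
Pla2g1b (chr12:46812654-46812753, minus strand): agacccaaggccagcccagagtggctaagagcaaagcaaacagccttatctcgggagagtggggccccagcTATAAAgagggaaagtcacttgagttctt
The marked letters start 31, 32, 31 and 29 bases before the 4 gene starts. A match is a description of the letters and not evidence of a bound factor.

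Lymphocyte genes varied in another order. Jchain, which joins antibody units in plasma cells, read 0.828, 11.9, 11.8 and 2.21, and Cd79b, part of the B cell receptor, read 2.12, 8.43, 13.1 and 3.99. Both were high in rats 2 and 3 and lowest in rat 1. The T cell genes Cd3d and Lck read 0.867, 1.47, 3.01 and 1.92 and 1.19, 1.29, 2.92 and 1.83, highest in rat 3. The list of 12 genes ranged over 1.19 log2 units, with its lowest level, −0.55, in rat 1 and its highest, 0.64, in rat 3. Treated arrays ran from −0.46 to 0.22, so rat 1 lay below and rat 3 above all of them.

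Single genes made up other large spreads. Dtx3, which encodes a ubiquitin ligase of the Notch pathway, was high only in rat 2, at 0.168, 14.4, 0.126 and 0.174, and had the highest SD of all, 2.92 log2 units. No treated array exceeded 0.348 for it. Dpt read 0.335, 6.63, 8.68 and 0.432, high in rats 2 and 3 and low in rats 1 and 4, and treated arrays ran from 0.398 to 8.71. Mmadhc, a protein of cobalamin handling, read 0.889, 8.43, 6.95 and 10.5, low in rat 1 only. Gda, the guanine deaminase, read 89.5, 14.6, 10.1 and 27.6 on its variable probe, highest in rat 1, whereas its other probe had a log2 SD of 0.21.

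**Figure D3:**
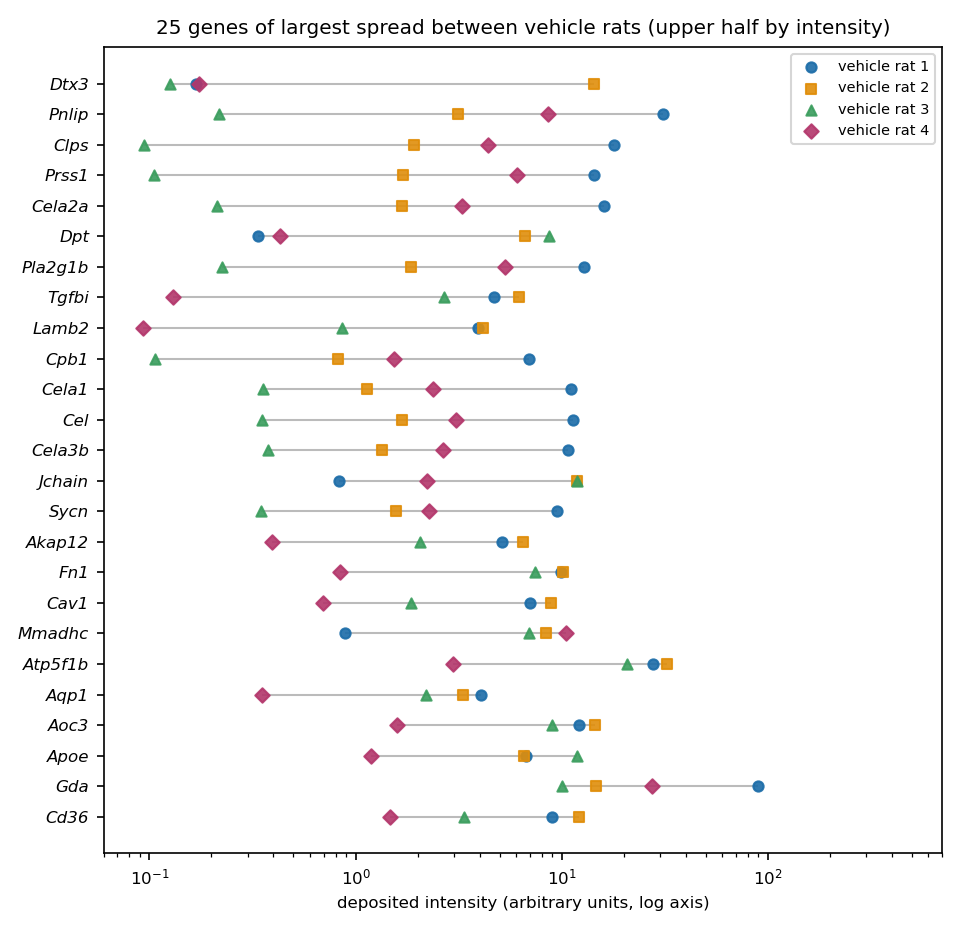
Deposited intensity (arbitrary units, log axis) of the 25 genes with the highest SD of centred log2 values between the 4 vehicle rats, among probes above the median intensity, 1 symbol per rat. Pancreatic genes place rat 1 highest and rat 3 lowest, whereas Tgfbi, Lamb2, Akap12, Fn1, Cav1, Atp5f1b, Aqp1, Aoc3, Apoe and Cd36 place rat 4 lowest.

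Another block was defined by array 4. Of the 100 most variable probes, 45 were among the 92 that read over 1 log2 unit below all other vehicle arrays in array 4. Where the same gene had another probe (62 of the 92), only its brightest other probe was compared. In none did that probe also read over 1 log2 unit low, and in 53 it was the brighter one. These compared probes had a median intensity of 28.2 against 4.18 for the class. Taking the brightest other probe, beside a class chosen for low readings, favours a brighter partner. No share over all probes was counted. Sdha and Hk1 each had more than 1 probe in the class, so for them other probes of the gene were low too. All class probes of such a gene were compared with the same other probe. Cav1, the coat protein of caveolae, read 7.03, 8.87, 1.87 and 0.699 on the low probe and had a log2 SD of 0.15 on its other probe. Aoc3 read 12.2, 14.5, 8.95 and 1.59 on its low probe beside the steady values of its bright probe given above.

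The same 92 probes were low in tamoxifen array 3 as well, by a median of 2.13 log2 units against vehicle arrays 1 to 3 and with 91 of 92 over 1 unit low, whereas their median in vehicle array 4 fell by 1.63. Medians in the other 15 treated arrays lay between −0.50 and 0.38. Among the 25 most variable genes, the probes of Tgfbi, Lamb2, Akap12, Fn1, Atp5f1b, Aqp1, Apoe and Cd36 also belonged to this class. Its origin was not tested. Without the class, 29 of the 55 remaining most variable probes lay in the top 10% for spread within treated groups.

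Receptor and channel genes shared an order between rats on a smaller scale. Of 18 vasoactive receptor and channel genes above the median probe intensity, 9 read over 0.3 log2 units higher in both rats 3 and 4 than in either of rats 1 and 2 (50%), against 21.4% of all 7151 such genes. Npy1r, P2rx1, Agtr1a, Gucy1a1 and Kcnma1 gave the values above, and Itpr1, the calcium release channel of the sarcoplasmic reticulum, read 11.1, 9.94, 21.4 and 30.6. This grouping of the rats was chosen after the values were seen. The share was nearly as high for heat shock genes (6 of 13, 46.2%) and basement membrane genes (4 of 9, 44.4%), followed by mediator synthesis (3 of 8, 37.5%) and circadian clock genes (4 of 11, 36.4%), so the order was not particular to receptors and channels. Within the smooth muscle list 2 of 22 genes did so (9.09%), and of 65 oxidative phosphorylation genes 15 (23.1%). The treated arrays covered the same range of list levels, 1.38 to 2.25, apart from rat 4, which stood at 2.39.

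Early response genes leaned to rat 1. Fos, a transcription factor induced within minutes of a stimulus, read 38, 10.3, 9.12 and 11.1 on its brighter probe. Its other probe read 7.82, 2.48, 6.21 and 2.41, with rat 3 near rat 1. Klf4, a transcription factor of smooth muscle and endothelium, read 83.2, 58.8, 55 and 41.7. Zfp36, which destabilises cytokine messages, read 22.3, 11.1, 4.73 and 10.8, and Dusp1, a phosphatase that ends kinase signals, read 61.6, 30.5, 22 and 36.3. Ccn1, an immediate early matricellular gene, was instead high in rat 2, at 1.85, 8.89, 1.34 and 1.25. Rat 3 had the lowest list level.

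Lipid synthesis genes leaned the other way. Scd, the stearoyl-CoA desaturase, read 16.9, 45.2, 70.3 and 48, and Fasn, the fatty acid synthase, read 43, 59.3, 89.7 and 62.9. Both were lowest in rat 1 and highest in rat 3. Acaca, which makes malonyl-CoA, followed the same order at 34.7, 46.2, 57.6 and 49.3. The list ranged over 0.74 log2 units among vehicle rats and from 3.39 to 5.48 among treated arrays, a wider span.

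The steadiest bright genes, named after their values were seen, included Psma5, a proteasome subunit, at 37.5, 36.1, 36.6 and 36, and Ap2m1, a clathrin adaptor, at 75.6, 72.1, 72.4 and 73.6. Mmp2, the gelatinase that cleaves basement membrane collagen, read 64.9, 63.6, 62 and 62.9, and Gapdh, the glycolytic enzyme often used as a reference, read 118, 113, 117 and 110.3. Each had a log2 SD under 0.1, which 860 of the 8418 probes (10.2%) did.

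**Figure D4:**
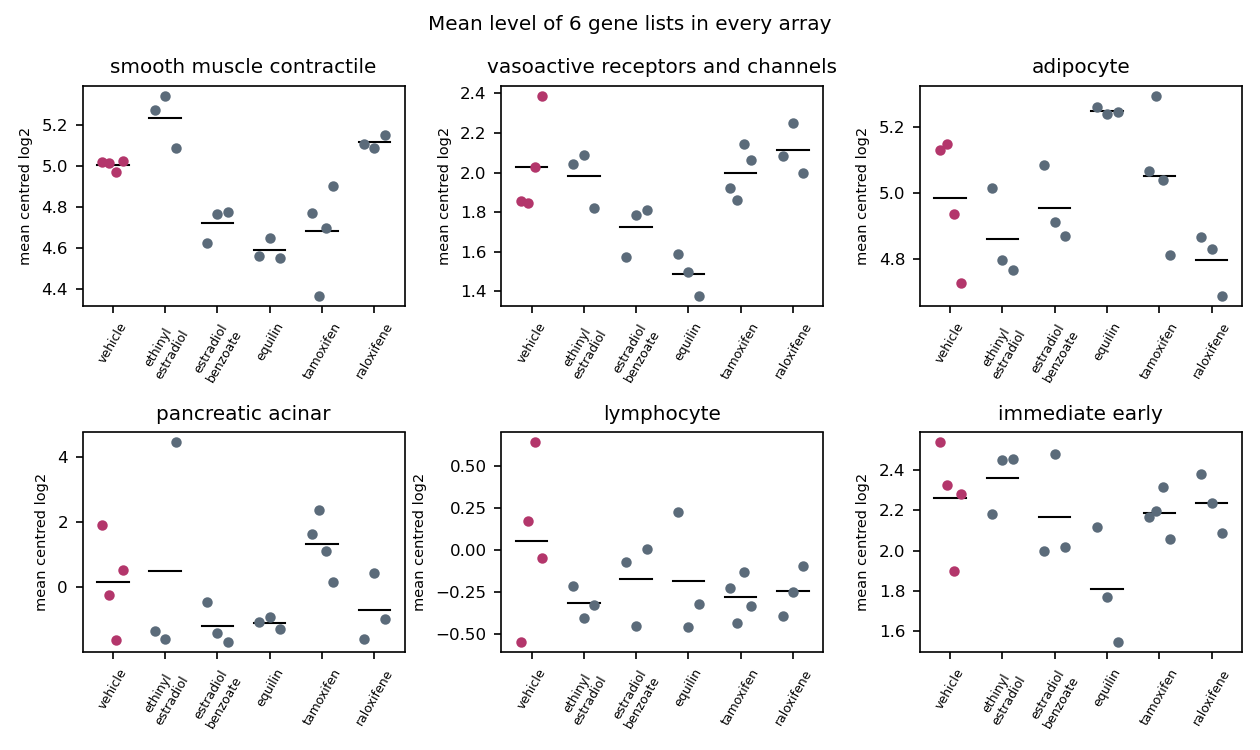
Mean centred log2 level (y axis) of 6 gene lists in every array, by group (x axis), with a bar at the group mean and a separate y range for each list. The mean levels of vehicle rats span 0.05 log2 units for the smooth muscle list and 3.57 for the pancreatic acinar list. The highest pancreatic level, 4.45, is in an ethinyl estradiol array.

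Against the mean of the 5 treated groups, 66 of 24562 tested probes passed at a limma adjusted p under 0.05 (0.269%), 51 higher in vehicle (0.208%) and 15 lower (0.0611%). At an unadjusted p under 0.05 there were 3478. The median difference of all tested probes was 0.09 log2 units, against which each difference is read. Without vehicle array 1 the count was 444 (333 lower in vehicle), without vehicle array 2 it was 31, and without vehicle array 3 it was 22. It was 39 without estradiol benzoate array 3, 31 without equilin array 2, 37 without equilin array 3, 35 and 42 without tamoxifen arrays 1 and 2, and 233 without raloxifene array 3. With 1 symbol there were 48, for 46 genes, of which 39 were higher in vehicle. Matrix and cell cycle genes were among those higher in vehicle. In contrast, 0 of 24 smooth muscle, 0 of 21 endothelial and 0 of 15 adipocyte genes passed limma's test, with 2, 2 and 0 at an unadjusted p under 0.05 against 14.2% of all tested genes, which does not show that they were equal. Their median differences were 0.17, 0.21 and 0.03, against 0.16 over all tested genes.

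Of 37 matrix genes, 5 passed and all 5 were higher in vehicle. Over all 10220 tested genes, 36 were called higher and 7 lower. The list median was 0.44, against 0.16 over all tested genes. An unadjusted limma p under 0.05 was found for 19 of the 37, against 14.2% of all tested genes. The mean level of the 37 genes was 4.93 to 5.14 in the vehicle rats and 4.41 to 4.81 in treated rats, without overlap. Members of the list were chosen with earlier results of these data known, so its shares and levels are a description. The 5 were Col1a1, Tnc, Postn, Fn1 and Pcolce, the last named after its values were seen. Col1a1 was higher by 1.16 ± 0.14 log2 units (standard error, adjusted p = 0.0011) on the dimmer probe, whose vehicle values of 21.5 to 25.5 lay above all treated values (6.26 to 21.0), and by 1.16 ± 0.19 log2 units (standard error, adjusted p = 0.0102) on the brighter, where the groups overlapped. Tnc, the wound-associated protein tenascin C, read 1.82, 2.61, 3.35 and 3.56 in vehicle rats and 0.581 to 1.81 in treated ones, a difference of 1.13 ± 0.17 log2 units (standard error, adjusted p = 0.0102), and its other probe differed by 1.24 ± 0.25 (adjusted p = 0.0436). Postn was higher by 0.87 ± 0.15 log2 units (standard error, adjusted p = 0.0192) and Fn1, fibronectin, by 0.72 ± 0.14 log2 units (standard error, adjusted p = 0.0312), both with overlap, while a dimmer Fn1 probe of the array 4 class differed by −0.02 ± 0.66 (adjusted p = 0.989). Pcolce, an enhancer of procollagen processing, was higher by 0.66 ± 0.13 log2 units (standard error, adjusted p = 0.0481), and its other probe differed by 0.80 ± 0.32 (adjusted p = 0.277).

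Sfrp4, a secreted antagonist of Wnt signals, showed the largest difference among genes whose groups did not overlap. It read 1.82, 1.59, 1.66 and 1.54 in vehicle rats and 0.138 to 1.52 in treated rats, higher by 1.53 ± 0.25 log2 units (standard error, adjusted p = 0.0102). The highest treated value, from estradiol benzoate, lay just under the lowest vehicle value. Cpz, a carboxypeptidase of the extracellular matrix, read 13.2, 10.8, 15.9 and 17.4 against 3.21 to 10.1, higher by 1.35 ± 0.13 log2 units (standard error, adjusted p = 0.0002).

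Of 27 cell cycle genes 25 were tested, and 5 were higher in vehicle and none lower. Over all 10220 tested genes, 36 were called higher and 7 lower. The list median was 0.41, against 0.16 over all tested genes. An unadjusted limma p under 0.05 was found for 12 of the 25, against 14.2% of all tested genes. This list too was chosen with earlier results of these data known, so its share and median are a description. Top2a, the topoisomerase of dividing cells, read 2.11, 2.82, 2.82 and 2.47 against 0.51 to 1.76, higher by 1.39 ± 0.15 log2 units (standard error, adjusted p = 0.0003). Mki67, a proliferation marker, read 1.70, 2.25, 2.61 and 2.27 against 0.366 to 1.40, higher by 1.32 ± 0.22 log2 units (standard error, adjusted p = 0.0117). Nusap1, a spindle protein, read 0.701, 0.613, 0.699 and 0.710 against 0.105 to 0.545, higher by 1.01 ± 0.15 log2 units (standard error, adjusted p = 0.0102). Ccna2 and Kif20a, named after their values were seen, were higher by 0.78 ± 0.15 log2 units (standard error, adjusted p = 0.0335) and by 0.84 ± 0.16 log2 units (standard error, adjusted p = 0.0336). Cenpt, a kinetochore protein outside the list, was higher by 1.18 ± 0.22 log2 units (standard error, adjusted p = 0.0284). All 6 are dim, at means under 3.

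Among genes of the fibroblast and steroid lists, Serpinf1 was higher in vehicle by 0.57 ± 0.10 log2 units (standard error, adjusted p = 0.0117). Hsd11b2, which inactivates glucocorticoid, was higher than the mean of the treated groups by 1.03 ± 0.17 log2 units (standard error, adjusted p = 0.0117). Its vehicle values of 2.47 to 3.70 overlapped the treated values, which reached 4.72. The estradiol benzoate mean, 3.51 ± 1.06 (SD, n = 3), lay above the vehicle mean of 3.07. Hsd17b2, which converts estradiol to the weaker estrone, was the only symbol probe called lower without overlap. It read 0.115, 0.273, 0.282 and 0.251 in vehicle rats and 0.364 to 0.600 in treated rats, a difference of −0.89 ± 0.14 log2 units (standard error, adjusted p = 0.0102), at the dim end of the scale. Non-overlap without regard to the test held for 69 probes higher in vehicle (0.281%) and 25 lower (0.102%), and for 15 and 1 of the called symbol probes.

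The vehicle mean lay beyond all 5 treated group means for 46 of the 48 probes. These probes were called for a difference from the mean of the same 5 groups, which favours that outcome. Of the 39 higher in vehicle, estradiol benzoate had the highest treated mean for 29. Neither count was made over all tested probes, so no background share stands beside them. For Col1a1 the dimmer probe averaged 23.6 ± 1.65 (SD, n = 4) in vehicle, 19.4 ± 1.70 (n = 3) under estradiol benzoate, 8.39 ± 2.34 (n = 3) under ethinyl estradiol, 8.75 ± 1.05 (n = 3) under equilin, 8.71 ± 1.43 (n = 4) under tamoxifen and 11.5 ± 1.87 (n = 3) under raloxifene. Estradiol benzoate thus lay nearest to vehicle for this gene, a difference between treated groups that was not tested.

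With the array set as a block, 31 of the 48 symbol probes passed, and Pcolce, Ccna2, Kif20a and Cenpt no longer did, at adjusted p of 0.113, 0.0548, 0.108 and 0.0777. The brighter Tnc probe also lost its call, at an adjusted p of 0.156, while the dimmer one kept it at 0.0339. Within set A, where vehicle has only array 1 and is assumed to vary like the treated groups, 111 probes passed with 106 lower in vehicle, and within set B 5 passed, with 4 higher. Estrogens lie wholly in set A and tamoxifen and raloxifene in set B, so set and drug class cannot be told apart.

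**Figure D5:**
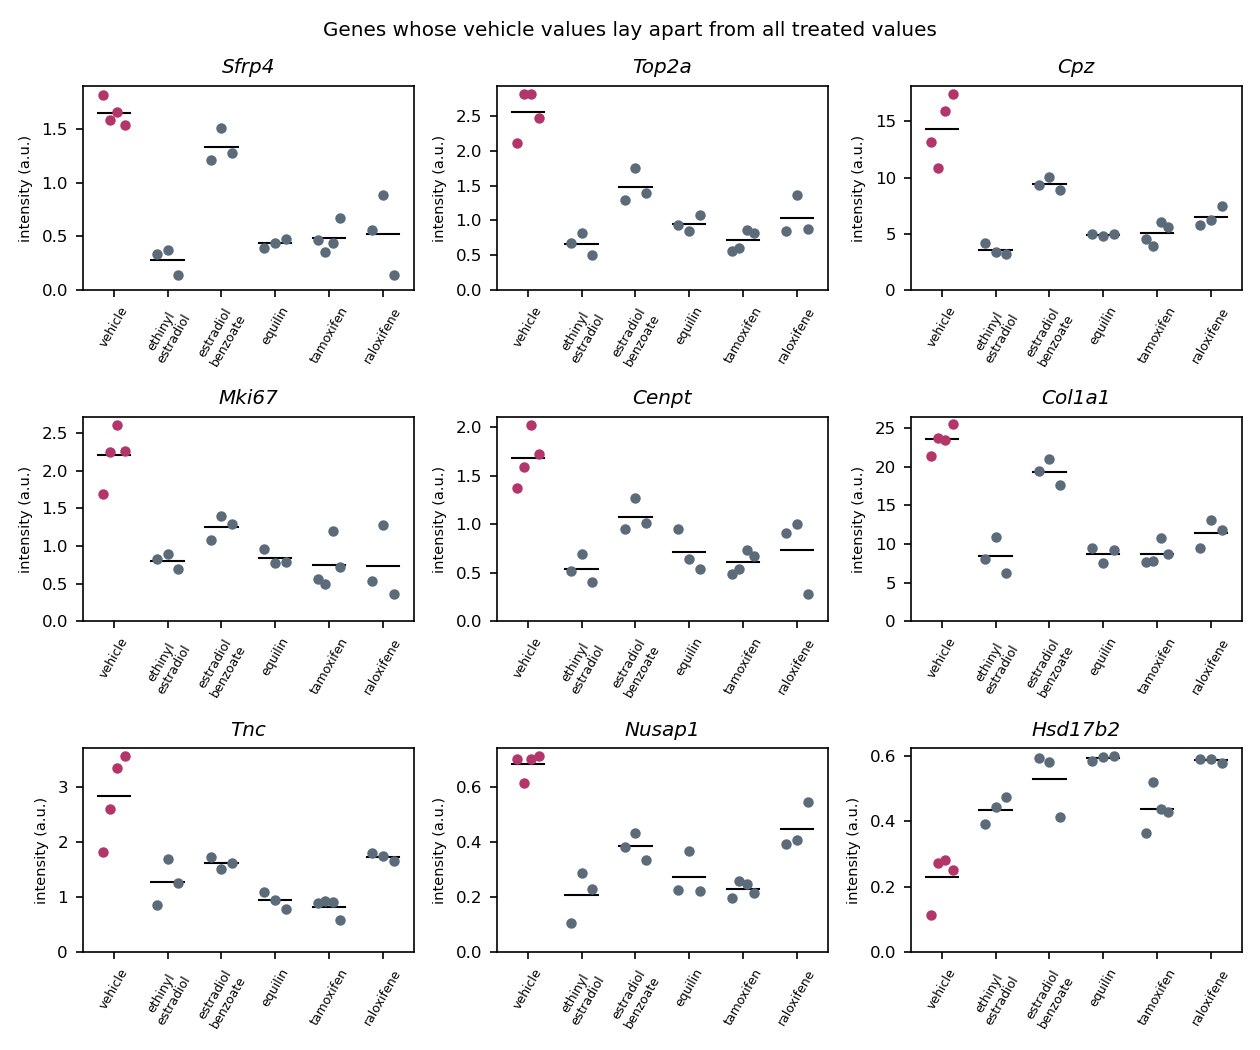
Deposited intensity (arbitrary units, axes from 0) in every array for 9 of the 16 called symbol probes whose vehicle values (red) did not overlap the treated values (grey), by group, with a bar at the group mean. They are the 8 with the largest differences among those higher in vehicle, and Hsd17b2. For Col1a1 the dimmer probe is drawn. Hsd17b2 is lower in vehicle.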

How the data were processed

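RNA from the mesenteric artery of single rats was hybridised to single-colour CodeLink arrays and scanned, per the labels and the design text. The deposited intensity values are linear, background-subtracted and scaled by the authors to array medians near 1. The program that made them is not named in the sources used here. Probe symbols came from the platform annotation: 16865 of 35129 probes had 1 symbol, 165 several and 18099 none, and 16836 matched RefSeq by gene ID, which updated 1 symbol.

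Negative deposited values were raised to 0. After adding 0.103, which is 0.1 times the overall median, log2 values were taken and centred on each array's median. For the comparison, 40 probes with over 1 missing value in any group were dropped, as was the dimmest 30% by mean. Vehicle was compared with the mean of the 5 treated groups over 20 arrays with limma 3.58.1 in R 4.3.3 (eBayes with trend), with Benjamini-Hochberg adjustment over 24562 probes at 0.05. On simulated data for this comparison over 24428 probes, 11, 38, 44 and 49 of 50 changes of 0.5, 1, 1.5 and 2 log2 units were recovered, with 4 false calls. The simulation drew independent noise with each probe's own spread. It held no array sets and no probes low together in 1 array, so its counts are not error rates of the real comparison.

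Gene lists were scored on each gene's brightest probe. Named genes were the 6 markers, the 25 brightest, the 25 most variable, the brightest and most variable members of each list, members of the cell type, steroid and vasoactive lists by role, and the called genes without overlap with the largest differences. Members and lists were chosen with earlier results of these data known. The alternatives tried were other scalings, offsets, filters, variance models, blocks and left-out arrays.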

Additional observations from a re-analysis of the deposited data

Results flagged for a closer look

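Among 116 genes and 33 lists checked over the 4 vehicle arrays, 7 genes and 1 list had 1 array far from the other 3 by Dixon's ratio. Chance flags about 1 in 20 such groups, and both counts are near that share. Dtx3 and Mmadhc had also been named for their spread over these same arrays. Dtx3 read 14.4 in array 2 and 0.126 to 0.174 in the others. On its brighter probe, Fos read 38 in array 1 and 9.12 to 11.1 elsewhere. Mmadhc read 0.889 in array 1 against 6.95 to 10.5, and Hsd17b2 read 0.115 in array 1 against 0.251 to 0.282. Abcc9 read 37.2 in array 3 against 48.1 to 52.5, and Cma1 read 9.40 in array 3 against 14.7 to 16.4. Tagln read 228.9 in array 4 against 279.6 to 293. The Schwann cell list scored −0.13 log2 units in array 4 and 0.03 to 0.06 in the others.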

How the results depend on the processing

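The 66 probes called against treated rats were the result that moved most. Array weights gave 358 (153 higher in vehicle, 205 lower), the array set as a block 280 (41 and 239, with 40 shared with the 66), and leaving out the lowest 50% of probes 42. Within array set A there were 111, and within set B 5; these 2 settings were chosen after seeing the data. Leaving out 1 array gave 22 to 444. Quantile normalisation gave 52 with 31 higher and 21 lower, leaving out vehicle array 4 gave 65 with 29 and 36, and leaving out vehicle array 4 and tamoxifen array 3 together, added after seeing the data, gave 66 with 37 and 29. The other scalings, offsets, filters and variance model gave 49 to 81. Replicate numbers were shared between groups, and 4 of 15 same-numbered pairs correlated above 0.1 (−0.43 to 0.29). These correlate deviations from the means of small groups, so they cannot decide whether same-numbered arrays share more than a number. The fit with the replicate block called 40 probes, 36 of them among the 66. Named called genes kept their direction in every setting run, with 535 of their values still past the threshold and 151 not.

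The brightest 100 probes shared 97 to 100 with every alternative run. The most variable 100 shared 50 when the upper 70% of symbol probes were ranked, and 53 to 83 without 1 vehicle array (65 without array 1, 53 without array 4). They shared 89 to 100 under the other alternatives. Leaving out the probes low in vehicle array 4, added after seeing the data, left 55, a count fixed by the 45 taken out. The count of lists above percentile 90 was 6 with all probes of a gene, when the adipocyte, fibroblast, endothelial and fatty acid synthesis lists dropped to 89.99, 68.1, 79.8 and 86.9, and 9 or 10 otherwise. The causes were not tested. With 4 vehicle arrays small differences were often missed on simulated data for this comparison, where 11 of 50 changes of 0.5 log2 units were recovered. Those data held no array sets and no probes low together in 1 array.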
